A study of Mus musculus with 170 samples.

Results

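The BMP and TGF-beta ligands and the Id genes of the embryonic heart were examined as a set of 10 genes, out of 40549 in the table of transcript levels. The set holds 4 BMP ligands (Bmp2, Bmp4, Bmp5 and Bmp7), 3 TGF-beta ligands (Tgfb1, Tgfb2 and Tgfb3) and 3 Id genes (Id1, Id2 and Id3), and all 10 had a row. They were chosen by name with earlier results of these data known, so their counts beside all genes are descriptions only. The cells came from the ventricles of mouse hearts at embryonic day 9.5, on a C57BL/6 background. Control cells, labelled wild type, were taken by the study from embryos with homozygous floxed Dgcr8 and a Rosa26 mT/mG membrane reporter but without Cre. Conditional knockout (cKO) cells, labelled Mesp1Cre/+; Dgcr8-/-, carried the same floxed alleles and reporter together with Cre from the Mesp1 locus. This Cre acts in the early mesoderm that forms the heart, so endocardial and endothelial precursors lose Dgcr8 too, and not only cardiomyocytes (CMs). Dgcr8 encodes a subunit of the microprocessor, which cuts hairpin precursors out of primary microRNA transcripts. The comparison addressed whether transcripts of this signalling family differed in hearts that lack Dgcr8, and which cells held them.

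BMPs and TGF-betas are secreted dimers that bring type II and type I serine/threonine kinase receptors together. BMP receptors act mainly through Smad1, Smad5 and Smad9, and TGF-beta receptors through Smad2 and Smad3. The Id genes are classical BMP targets, and their products bind E proteins such as Tcf3, Tcf4 and Tcf12 and keep them from DNA. In the embryonic heart these ligands are known for CM specification, for chamber growth and for the change of endocardium into cushion mesenchyme.

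Single cells were picked by hand for full-length Smart-seq2 libraries. Sequencing depth is unknown, since TPM keeps none of it. Of the 170 labelled samples, 143 had a column, namely 74 control cells and 69 cKO cells, in 2 sequencing batches. Clustering on 55 marker genes, none of them a member, gave a CM-like cluster of 27 control and 67 cKO cells with all 15 CM markers above the other cells. It also gave 22 endothelial-like and 13 epicardial-like cells, which were all control. According to the paper, cKO CMs dissociated more easily than control CMs, so more of them were picked as single cells. The paper also reports endocardium in cKO hearts, so class shares here need not give the make-up of the hearts. The epicardial-like cluster had 6 of 6 epicardial and 8 of 14 mesenchymal markers raised, with 3 of each among its top 10 genes. The endothelial-like cluster had 12 of 13 endothelial and 4 of 14 mesenchymal markers raised, with 3 and 1 of them among its top 10 genes. A further 5 erythroid-like control cells were found, and a cluster of 9 cells whose leading genes as a cluster were mitochondrial stayed unnamed. The labels name no embryo, so each genotype is 1 sample, no test was possible and every difference below describes these cells only. SDs are across cells and do not give the error of a mean or of a difference of means. Intervals of shares cover counting error only. A gene is called detected in a cell at a TPM (transcript abundance scaled for transcript length and to a fixed total per cell) of at least 1. It is called higher or lower between genotypes where the mean log2(TPM + 1) differed by at least 1 unit with the same sign in both batches.

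Tgfb2 lies at chr1:186622792-186705989 (GRCm38, minus strand), Bmp7 at chr2:172868012-172940321 (minus), Id2 at chr12:25093799-25097140 (minus) and Id3 at chr4:136143497-136145755 (plus). The upstream sequence of the TGF-beta ligand that differed most between genotypes is given here together with that of the TGF-beta ligand that CM-like cells almost lacked. RefSeq windows (GRCm38.p6) were present for 6 of the 10 members. Those of Tgfb2 (chr1:186705990-186706239, minus strand) and Tgfb1 (chr7:25686752-25687001, plus strand) cover the 250 bases before the annotated start and hold no exon of their gene. Capitals mark matches to TGACG (a half-site bound by CREB and ATF factors), CACGTG (an E-box of bHLH factors) and TATAAA (a core promoter element). Other E-box sequences were not searched.
Tgfb2: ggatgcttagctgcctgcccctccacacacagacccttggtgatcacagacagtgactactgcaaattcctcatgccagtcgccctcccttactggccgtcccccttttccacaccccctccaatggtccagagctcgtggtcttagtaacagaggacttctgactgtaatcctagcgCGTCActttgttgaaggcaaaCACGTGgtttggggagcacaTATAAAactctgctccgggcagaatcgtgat
Tgfb1: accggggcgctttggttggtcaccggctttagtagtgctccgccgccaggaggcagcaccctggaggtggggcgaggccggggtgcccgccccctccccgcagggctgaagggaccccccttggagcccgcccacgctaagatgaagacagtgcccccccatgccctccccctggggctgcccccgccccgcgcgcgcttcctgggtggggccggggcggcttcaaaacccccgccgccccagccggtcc
Both strands were searched for these motifs and for GGCGCC, a GC-rich Smad motif. In the Tgfb2 window TGACG matched on the opposite strand at bases -72 to -68, CACGTG at -51 to -46 and TATAAA at -31 to -26, and the matches do not overlap. None of the 4 motifs matched in the Tgfb1 window. Among the other windows, CACGTG matched in that of Bmp4, TGACG in that of Id3 and GGCGCC in that of Id2. These members were not past the threshold between genotypes, and the Id2 and Id3 windows overlap exons of their gene. Among 32817 windows of the same length, TGACG occurred in 17.7%, TATAAA in 12.4%, GGCGCC in 9.59% and CACGTG in 6.02%. These matches describe the letters of the windows, and no binding was measured.

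Among CM-like cells, 9 of the 10 members passed the filter on low values (TPM above 0 in more than 10 of the cells compared). Of these, Tgfb2 and Bmp7 were higher in cKO cells, none was lower and 7 differences lay above 0. Over all 15071 genes that passed, 6.34% were higher and 6.18% were lower by the same rule. The median difference of the 9 members was 0.33 log2 units (0.54 in batch 1 and 0.34 in batch 2), against 0.05 over all genes (0.17 and -0.20).

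**Figure D1:**
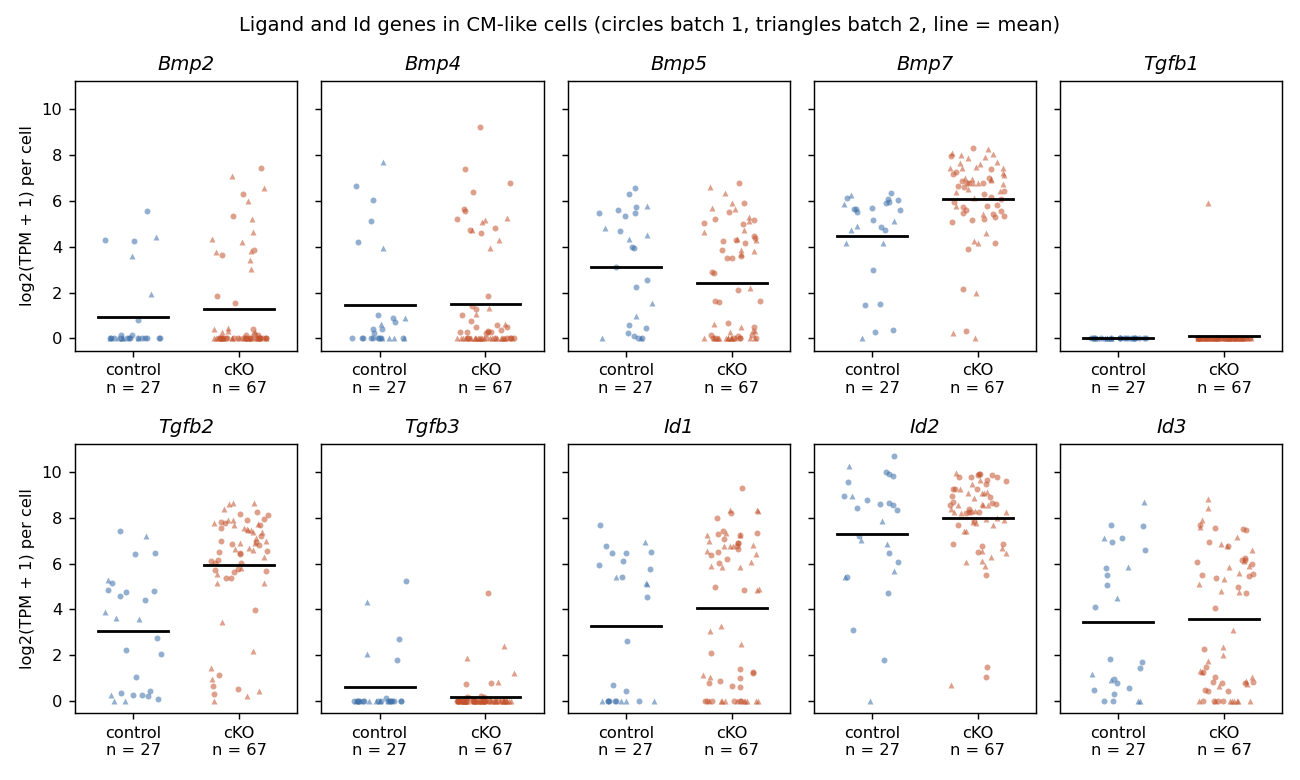
Level of each member in every CM-like cell, as log2(TPM + 1), in 27 control (blue) and 67 cKO (orange) cells. Circles are batch 1, triangles batch 2 and the black line is the mean. The cKO cells lie higher for Tgfb2 (mean 5.95 against 3.06) and Bmp7 (6.09 against 4.48), and the points of the genotypes overlap for every member.

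Tgfb2, the ligand best known for cushion formation, showed the largest difference of the set. In control CM-like cells its TPM had a minimum of 0, a median of 11.1 and a maximum of 172.7. In cKO CM-like cells the minimum was 0, the median 102.3 and the maximum 401.3. The distributions overlapped, but 22 of 67 cKO cells lay above every control cell. The mean log2(TPM + 1) was 3.06 ± 2.50 (SD, n = 27 cells) in control and 5.95 ± 2.43 (SD, n = 67 cells) in cKO, a difference of 2.90. It was 2.86 in batch 1 and 2.97 in batch 2, so the batches gave almost the same size. Tgfb2 was detected in 18 of 27 control cells, 66.7% (exact 95% CI 46.04 to 83.5), and in 60 of 67 cKO cells, 89.6% (79.7 to 95.7). Within the cells that had it, the median TPM was 24.6 in control and 117.7 in cKO, so the level differed in addition to the share. A TPM of 100 or more was seen in 2 control and 34 cKO cells.

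Bmp7, which in the early heart is a myocardial BMP, was the other ligand that was higher. Its TPM in control CM-like cells ran from 0 through a median of 34.7 to 81.3. In cKO CM-like cells it ran from 0 through 95.4 to 314.5. Of the 67 cKO cells, 38 (56.7%) exceeded every control cell, more than for any other member. The means were 4.48 ± 1.99 (SD, n = 27 cells) and 6.09 ± 1.83 (SD, n = 67 cells) log2 units, a difference of 1.60, with 1.31 in batch 1 and 1.93 in batch 2. The pooled difference lies below both SDs. With clusters from the most variable genes the difference was 0.97, below the threshold. Nearly all cells had the transcript, 24 of 27 in control (88.9%, 70.8 to 97.6) and 64 of 67 in cKO (95.5%, 87.5 to 99.1), so the genotypes differed mainly in level. No control cell and 32 cKO cells reached a TPM of 100.

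The remaining BMP ligands did not pass the threshold. Bmp5, a close relative of Bmp7, had a median TPM of 14.4 in control (0 to 94.3) and 3.28 in cKO (0 to 108.8). Its means were 3.12 ± 2.37 and 2.44 ± 2.33 log2 units, which differ by -0.69, or by -0.59 and -0.56 in batches 1 and 2. Bmp5 thus lay on the other side of 0 from Bmp7 in both batches, by less than the SD across cells. It was detected in 66.7% of control (46.04 to 83.5) and 55.2% of cKO cells (42.6 to 67.4), intervals that overlap.

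Bmp4, known for early mesoderm and the outflow region, was a minority transcript. It was detected in 7 of the 27 control cells and 22 of the 67 from cKO, with a median TPM of 0.193 in control (maximum 208.2) and 0.191 in cKO (maximum 602.2). The difference was 0.08, but 0.78 in batch 1 and -0.72 in batch 2, so it had no common direction. Bmp2, a signal of the atrioventricular canal, was also sparse. Its median was 0 in both genotypes, with maxima of 45.8 in control and 173.5 in cKO, and it was detected in 6 of the 27 control cells and 18 of the 67 from cKO. Its difference was 0.33 (0.14 and 0.34 in batches 1 and 2), with an SD across cells of 1.76 in control and 2.18 in cKO. The log2 ratio of mean TPM was 1.36 for Bmp2, past 1 log2 unit, so its size depended on the measure.

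The other TGF-beta ligands were scarce in CM-like cells. Tgfb1 was listed at 0 in all 27 control cells. A count of 0 allows up to 11.1% of such cells to have it at the detection level. It was detected in 1 of 67 cKO cells at a TPM of 58.3. It was the member that did not pass the filter. Tgfb3, with a median of 0 in both genotypes, was detected in 5 of 27 control cells (18.5%, 6.30 to 38.1; maximum TPM 36.7) and 4 of 67 cKO cells (5.97%, 1.65 to 14.6; maximum 25.6). Its difference was -0.40, with -0.31 in batch 1 and -0.61 in batch 2. The log2 ratio of mean TPM was -2.18 for Tgfb3, and rests on these few cells. Of the 3 TGF-beta ligands, only Tgfb2 was detected in most CM-like cells of these libraries. Annotated genes on the opposite strand overlap Tgfb2 (Gm26169 and Gm29491), Tgfb3 (Gm37804, Gm48008 and Ttll5), Bmp4 (Gm15217 and Gm15222) and Bmp5 (Gm26903). Libraries of this kind do not mark strand, so reads from any exon sequence shared with such a partner cannot be told apart by strand. The overlaps are of whole gene spans, and whether exons overlap was not examined.

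Id2 was the most abundant member in CM-like cells. Its TPM ran from 0 through a median of 321.9 to 1654.6 in control and from 0.622 through 330.1 to 987.9 in cKO. The medians were close and the highest values were in control, where 3 cells exceeded every cKO cell. The mean log2(TPM + 1) was 7.30 ± 2.64 in control and 7.99 ± 1.89 in cKO, a difference of 0.69 (0.54 in batch 1 and 1.32 in batch 2), while the log2 ratio of mean TPM was 0.00. The 8 control cells of batch 2 had a median Id2 TPM of 121.7 and the 19 of batch 1 one of 380.2.

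Id1 had a median TPM of 22.5 in control (0 to 201.6) and 30.5 in cKO (0 to 625.5). It was detected in 15 of the 27 control cells (55.6%, 35.3 to 74.5) and 46 of the 67 from cKO (68.7%, 56.2 to 79.4), and a TPM of 100 or more was seen in 3 control and 22 cKO cells. The difference was 0.80, with 0.61 in batch 1 and 1.24 in batch 2. It pointed the same way in both batches. The SD across cells was 3.02 in control and 3.21 in cKO, which does not give the error of this difference.

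For Id3 the sign of the difference depended on the batch and the setting. Its TPM had a median of 2.57 in control (0 to 410.5) and 15.6 in cKO (0 to 456.2), yet the means were 3.44 ± 3.04 and 3.58 ± 2.94 log2 units. The difference was 0.13, with 0.26 in batch 1 and -0.04 in batch 2. A log2 ratio of mean TPM gave -0.08. Clusters from the most variable genes gave -1.20. Detection was 62.96% (42.4 to 80.6) in control and 67.2% (54.6 to 78.2) in cKO. None of the 3 Id genes met the threshold with the main settings. With a pseudocount of 0.1 the difference of Id1 was 1.21. With 4 clusters it was 1.13 for Id1 and 1.33 for Id2, so these calls depended on the setting.

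**Figure D2:**
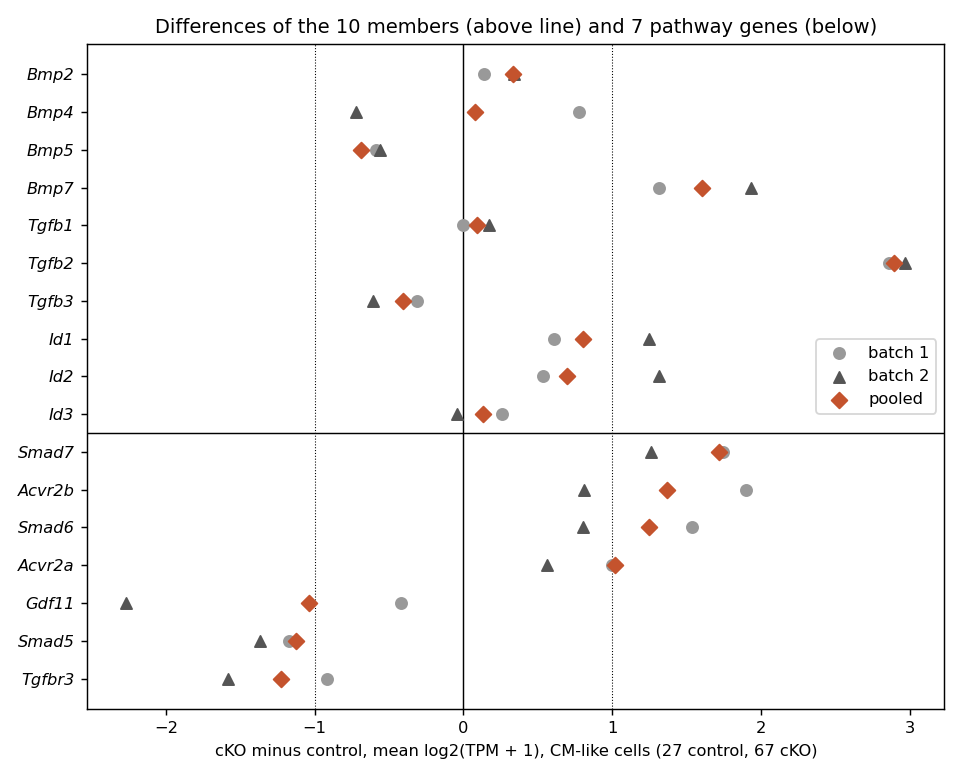
Difference in mean log2(TPM + 1), cKO minus control, among CM-like cells for the 10 members (above the line) and for the 7 genes of the pathway list past the threshold (below it), pooled and within each batch. Dotted lines mark 1 log2 unit in each direction. Tgfb2 has 2.86 and 2.97 in the 2 batches, Bmp7 has 1.31 and 1.93, and Bmp4 lies on opposite sides of 0.

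Some properties of the cells moved with genotype, and their part in these differences was not tested. Xist, the transcript of the inactive X chromosome, was detected in 64 of 67 cKO and 0 of 27 control CM-like cells, and the Y-linked Ddx3y in 0 and 18 of them. Genotype and these sex-linked transcripts coincide, and their parts cannot be told apart. Dgcr8 itself was detected in 14 of the 27 control cells (51.9%) and 21 of the 67 from cKO (31.3%), a difference of -0.75 log2 units (-0.20 in batch 1 and -1.06 in batch 2). This was a weak check, since a level per gene also counts transcripts that lack the deleted exon. The median number of genes with TPM above 0 was 9302 in control and 8650 in cKO CM-like cells. In batch 1 it was 8458 against 9845, and in batch 2 9704 against 7765. The median share of TPM from mitochondrial genes was 6.30% in control and 3.00% in cKO CM-like cells (6.30% against 3.19% in batch 1 and 6.25% against 2.82% in batch 2). With only cells of at least 7000 such genes, the difference was 3.11 for Tgfb2 and 1.57 for Bmp7.

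Epicardial-like cells had high Tgfb2, so markers of other classes were summed in each CM-like cell. All 6 epicardial markers were detected in some cKO CM-like cell and 5 in some control one, with summed TPM of 0 to 454.4 (median 34.8) and 0.306 to 533.3 (median 24.4). For the 13 endothelial markers the sums ran from 1.69 to 208.3 (median 13.5; 12 markers detected) in cKO and from 1.82 to 105.5 (median 7.84; 11 detected) in control. For the 14 mesenchymal markers they ran from 0.128 to 127.3 (median 3.95; 11 detected) and from 0.0445 to 123.1 (median 2.16; 9 detected), with Lum at 0 in every CM-like cell and Postn at 0 in those of cKO. For the 7 erythroid markers they ran from 0 to 554.5 (median 8.16; 6 detected) in cKO and from 0 to 356.6 (median 1.34; 5 detected) in control. Leaving out cells with more than 2 endothelial, mesenchymal or epicardial markers at a TPM of 10 or more kept 25 of 27 control and 48 of 67 cKO cells. In them the difference was 2.65 for Tgfb2 and 1.23 for Bmp7.

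Single CM-like cells often held both ligands that were higher. Tgfb2 and Bmp7 were detected together in 18 of 27 control cells (66.7%) and 58 of 67 cKO cells (86.6%). Above every control cell in both were 16 of the 67 cKO cells, and in at least 1 of them 44. Neither was detected in 3 control cells and 1 cKO cell. Across cells, Pearson's r of their levels was 0.46 in control (0.49 and 0.41 in batches 1 and 2) and 0.24 in cKO (0.04 and 0.37). These correlations are descriptions over cells that share a library preparation and whose depths are unknown. The median of the summed ligand TPM was 88.2 per control cell and 244.3 per cKO cell, while that of the summed Id TPM was 381.1 and 445.9.

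**Figure D3:**
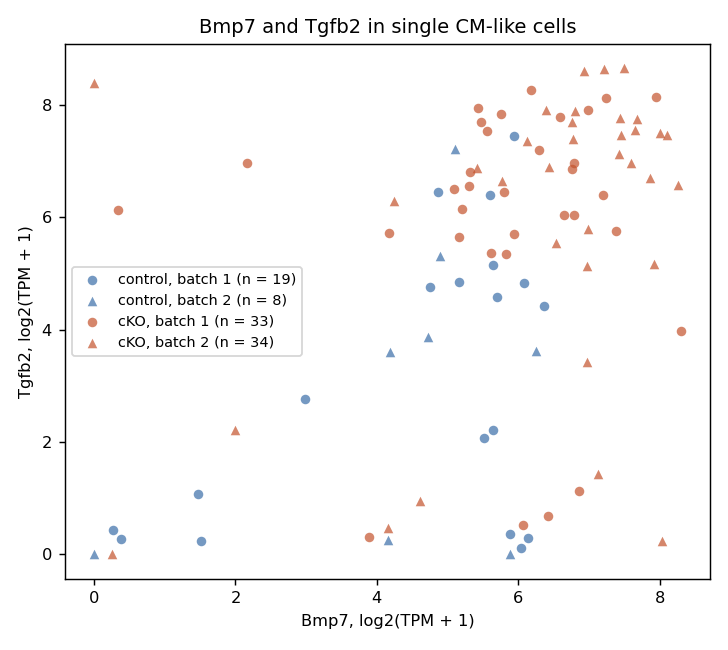
Bmp7 (horizontal) against Tgfb2 (vertical) as log2(TPM + 1) in each CM-like cell, blue for control and orange for cKO, circles for batch 1 and triangles for batch 2. The upper right is filled by cKO cells, of which 16 of 67 exceed every control cell in both genes, and some cells of both genotypes have high Bmp7 with almost no Tgfb2.

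The Id genes were also set against each other across CM-like cells, as a description. The r of Id1 with Id3 was 0.61 in 27 control cells (0.61 and 0.65 in the batches) and 0.02 in 67 cKO cells (-0.15 and 0.19). For Id2 with Id3 it was 0.53 (0.54 and 0.56) and 0.15 (0.10 and 0.21), and for Id1 with Id2 0.46 (0.32 and 0.73) and 0.19 (0.33 and 0.03). All 3 Id genes were detected in 14 of the 27 control cells (51.9%) and 32 of the 67 from cKO (47.8%). Whether these correlations differ between genotypes was not tested.

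The pathway around the ligands was described with a list of 54 other genes, of which 42 passed the filter in CM-like cells. Of these, 4 were higher and 3 lower in cKO cells, with the 6.34% and 6.18% above as background. This list too was chosen with earlier results of these data known. Their median difference was 0.13, against 0.05 over all genes. By role, 2 of 8 measured intracellular inhibitors and 2 of 8 receptors were higher, while 1 receptor, 1 of 6 Smads and 1 of 2 further ligands were lower. None of the 8 measured secreted antagonists and ligand-binding proteins and none of the 10 targets and Id partners was past the threshold.

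Smad7 and Smad6 encode the inhibitory Smads, which are themselves induced by the pathway and block its receptors. Smad7 was present in 29.6% of control but 62.7% of cKO CM-like cells, and its mean was 0.96 ± 1.60 and 2.68 ± 2.30 log2 units, a difference of 1.72 (1.74 in batch 1 and 1.26 in batch 2). Smad6 was detected in 18.5% and 43.3%, with a difference of 1.25 (1.54 and 0.80). Both differences thus lay above 0 in each batch, that of Smad6 in batch 2 by less than 1 log2 unit. In CM-like cells with at most 2 other markers they were 1.08 for Smad7 and 1.19 for Smad6.

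Among the receptors, the activin type II receptors Acvr2b and Acvr2a, which also bind BMPs, were higher. Acvr2b had a detected share of 22.2% in control and 52.2% in cKO (difference 1.37, with 1.90 and 0.81 in the batches), and Acvr2a in 37.04% and 58.2% (1.02, with 1.00 and 0.56). Acvr2a fell below the threshold when each cell was centred (0.98) and in CM-like cells with at most 2 other markers (0.91). Tgfbr3, the co-receptor betaglycan that presents TGF-beta2 to its signalling receptors, was lower, detected in 48.1% and 14.9% (-1.23, with -0.92 and -1.59). The higher ligand Tgfb2 and its co-receptor thus lay on opposite sides of 0.

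The type I receptor Bmpr1a was present in 66.7% of control but 91.0% of cKO cells, and its difference of 0.90 was 1.80 in batch 1 and -0.64 in batch 2. Bmpr2, the main type II BMP receptor, lay close to 0 (-0.02, with 0.11 and -0.11 in the batches). Tgfbr1, the type I TGF-beta receptor, had a pooled difference of 0.19, but 0.63 in batch 1 and -0.68 in batch 2. Tgfbr2, the type II TGF-beta receptor, did not pass the filter and had shares of only 7.41% and 1.49%. Few CM-like cells of either genotype therefore had a transcript of this receptor at the detection level.

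Smad5, a BMP-activated Smad, was lower, with a share of 55.6% in control and 29.9% in cKO (-1.13, with -1.17 and -1.37), whereas Smad1 differed by 0.14 (0.49 and -0.72) and Smad2 by 0.81 (0.54 and 1.23). Gdf11, a ligand of the activin branch, was lower as well, with 55.6% and 31.3% (-1.04, with -0.42 and -2.27). With 4 clusters Tgfbr3 (-0.90), Smad5 (-0.82) and Gdf11 (-0.63) were not past the threshold, nor was Smad5 by the log2 ratio of mean TPM (-0.76). The pooled difference lies outside the batch values for Bmp5, Smad5 and Acvr2a, because the batches hold different shares of the 2 genotypes, 19 and 8 control against 33 and 34 cKO cells.

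Control cells were then compared between classes, to show which cells of the ventricle carried each member. In this comparison a gene is called higher or lower at 1 log2 unit or more, without a condition on batch. Of the 8 members that passed the filter, 3 were higher (Id1, Id2 and Id3) and 2 lower (Bmp5 and Bmp7) in endothelial-like than in CM-like cells. The background was 22.7% higher and 8.97% lower of 13130 genes. In epicardial-like against CM-like cells, 5 of 8 were higher (Bmp2, Tgfb2, Id1, Id2 and Id3) and the same 2 lower, beside 22.9% and 8.54% of 11909 genes. The median difference of the members was 0.00 in the first comparison and 2.57 in the second, against 0.29 over all genes in each.

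**Figure D4:**
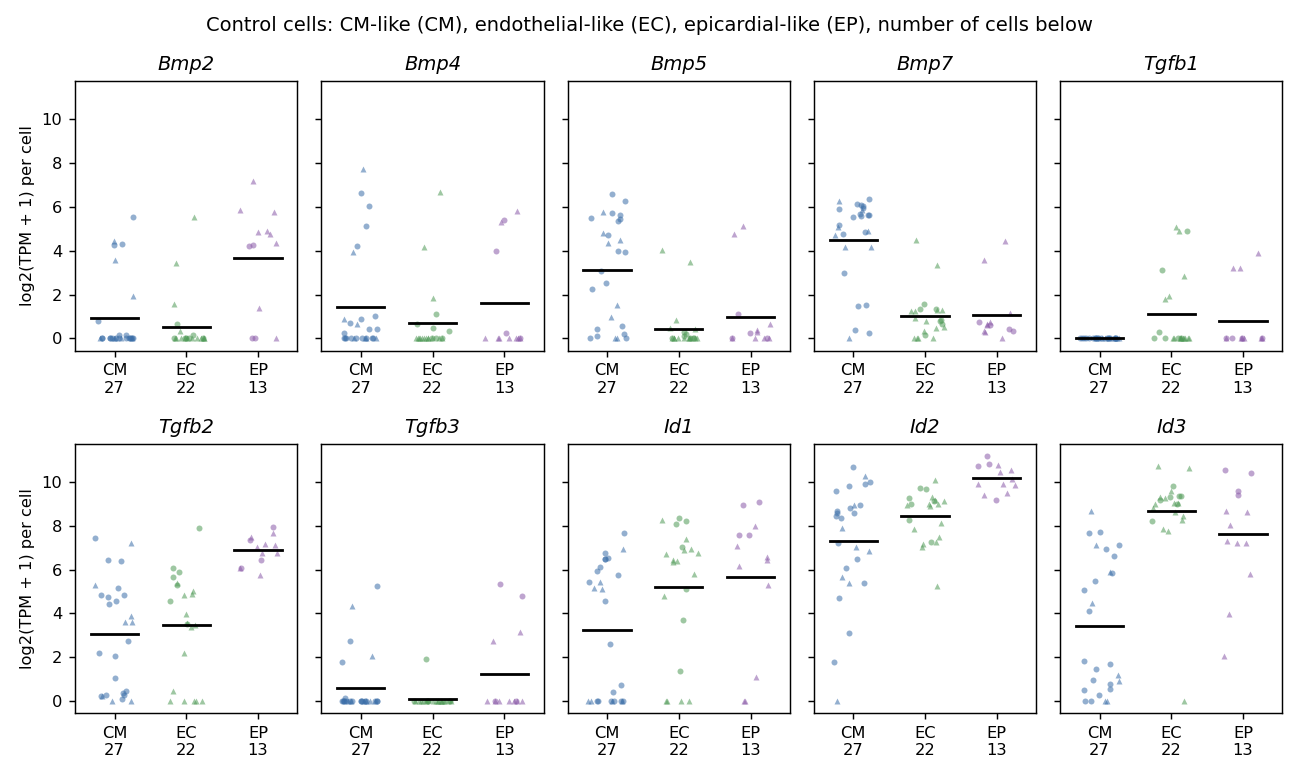
Level of each member as log2(TPM + 1) in every control cell of 27 CM-like (CM), 22 endothelial-like (EC) and 13 epicardial-like (EP) cells, with the mean as a black line, circles for batch 1 and triangles for batch 2. Bmp5 and Bmp7 are high in CM-like cells, Id3 is high in the other classes, and Bmp2 and Tgfb2 are highest in epicardial-like cells.

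Bmp7 and Bmp5 were the members of CM-like cells. The median TPM of Bmp7 was 34.7 in CM-like (0 to 81.3), 0.749 in endothelial-like (0 to 21.6) and 0.522 in epicardial-like cells (0 to 20.6). The difference to CM-like cells was -3.45 log2 units in endothelial-like cells (-3.56 and -3.33 in batches 1 and 2) and -3.41 in epicardial-like cells (-3.99 and -3.09). In each comparison 19 of 27 CM-like cells exceeded every cell of the other class. For Bmp5 the medians were 14.4, 0 and 0.183 and the differences -2.67 and -2.15, with the same sign in both batches. Both ligands were therefore above the other classes in CM-like cells, while Bmp7 and Bmp5 lay on opposite sides of 0 between genotypes.

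Bmp2 and Tgfb2 were the ligands of epicardial-like cells. Bmp2 was detected in 10 of 13 epicardial-like (76.9%, 46.2 to 95.0), 6 of 27 CM-like (22.2%, 8.62 to 42.3) and 3 of 22 endothelial-like cells (13.6%, 2.91 to 34.9). Its mean was 3.66 ± 2.46 log2 units there, 2.73 above CM-like cells (1.32 and 3.10 in the batches) and 3.12 above endothelial-like cells (2.00 and 3.61). The maximum TPM was 142.2, 45.8 and 45.4 in this order of classes.

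All 13 epicardial-like cells had Tgfb2 at a TPM between 53.2 and 248.1, with a median of 131.5. The CM-like median was 11.1 and the endothelial-like median 12.6 (0 to 234.8). The mean of 6.89 ± 0.67 log2 units in epicardial-like cells was 3.84 above CM-like cells (3.86 and 3.89 in the batches) and 3.44 above endothelial-like cells (1.40 and 4.39). Of the 3 classes, epicardial-like cells had the narrowest spread of Tgfb2. Endothelial-like and CM-like cells differed by 0.40, with 2.47 in batch 1 (7 and 19 cells) and -0.51 in batch 2 (15 and 8 cells), so they had no common direction. The cKO CM-like mean minus that of the epicardial-like control cells was -0.94.

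Tgfb1 was detected in 7 of 22 endothelial-like (31.8%, 13.9 to 54.9; maximum TPM 32.7) and 3 of 13 epicardial-like cells (23.1%, 5.04 to 53.8; maximum 13.9), and in none of the 27 CM-like cells. Tgfb3 was detected in 1 of 22 endothelial-like and 4 of 13 epicardial-like cells. Bmp4 was detected in 4 of 22 endothelial-like (18.2%, 5.19 to 40.3) and 4 of 13 epicardial-like cells (30.8%, 9.09 to 61.4), shares whose intervals overlap that of CM-like cells (25.9%, 11.1 to 46.3). These 3 ligands were minority transcripts in each of the 3 classes.

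The Id genes were higher in endothelial-like and epicardial-like than in CM-like control cells. Id3 had a median TPM of 528.3 in endothelial-like (0 to 1683.0), 258.0 in epicardial-like (3.23 to 1485.9) and 2.57 in CM-like cells (0 to 410.5). The difference to CM-like cells was 5.22 (5.77 and 4.89 in the batches) for endothelial-like cells, of which 15 of 22 exceeded every CM-like cell. It was 4.16 (6.58 and 3.00) for epicardial-like cells. This was the largest class difference of any member. The study's own list of markers for endothelial and mesenchymal cells includes Id3, so its direction there is not independent evidence.

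Id2 had medians of 1101.5 in epicardial-like (584.1 to 2313.0), 499.5 in endothelial-like (37.4 to 1087.6) and 321.9 in CM-like cells (0 to 1654.6). The mean was 2.88 higher in epicardial-like cells (2.84 and 3.54) and 1.16 higher in endothelial-like cells (1.27 and 1.75) than in CM-like cells. The endothelial-like difference was below the threshold in 5 of 10 alternatives, at 0.17 as the log2 ratio of mean TPM, 0.72 with clusters from variable genes, 0.90 with a pseudocount of 10, 0.91 with each cell centred and 0.98 in cells of at least 7000 genes. Id1 had medians of 94.8, 84.5 and 22.5 in this order, with differences of 2.42 (4.86 and 1.69) and 1.95 (2.53 and 2.02). Every endothelial-like and epicardial-like cell had Id2, and all 3 Id genes were detected in 18 of 22 and 11 of 13 of them.

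Between epicardial-like and endothelial-like cells, Bmp2, Tgfb2 and Id2 (1.72; 1.58 and 1.80 in the batches) were higher and Id3 lower (-1.06), of 9 members that passed, beside 13.1% and 13.8% of 11527 genes. For Id3 the batches disagreed in sign (0.81 and -1.88). In epicardial-like cells, Bmp2 went against Id3 (r -0.71 over 13 cells, -0.17 and -0.75 in batches of 4 and 9) and Id1 went with Id3 (r 0.88, 0.12 and 0.84), as descriptions of few cells.

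The pathway list differed between classes too. In endothelial-like against CM-like control cells, 20 of 39 measured pathway genes were higher and 3 lower, beside 22.7% and 8.97% of all genes. Smad7 was 3.38 higher, Tgfbr3 3.05 higher, Smad6 1.66 higher, Bmpr2 1.64 higher and Tgfbr2 1.17 higher, all of them above 0 in both batches. In epicardial-like against CM-like cells, 12 of 36 were higher and 2 lower, beside 22.9% and 8.54% of all genes, among them Smad7 (1.40) and Acvr2a (2.31) higher and Tgfbr3 (-1.71) lower. Of the 3 classes, Tgfbr3 was thus highest in endothelial-like and lowest in epicardial-like cells.

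In order of mean level on the length-scaled log2(TPM + 1), control CM-like cells had Id2 (7.30), Bmp7 (4.48), Id3 (3.44), Id1 (3.26), Bmp5 (3.12), Tgfb2 (3.06), Bmp4 (1.44), Bmp2 (0.93), Tgfb3 (0.60) and Tgfb1 (0). Each neighbouring pair in this order lay closer than the SD across cells of its higher gene, except Id2 and Bmp7 (2.81 apart, SD 2.64). In cKO CM-like cells the order began with Id2 (7.99), Bmp7 (6.09), Tgfb2 (5.95), Id1 (4.06) and Id3 (3.58). Tgfb2 thus had rank 6 in control and rank 3 in cKO cells.

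Taken over all cells regardless of class, Bmp7 and Tgfb2 were higher and Id3 was lower in cKO, out of 10 members that passed, beside 6% higher and 5.77% lower of 16659 genes. CM-like cells made up 27 of 74 control and 67 of 69 cKO cells, so this comparison also holds the difference in class shares of the picked cells. Bmp7 differed by 3.62 over all cells (2.79 and 4.41 in the batches) and 1.60 within CM-like cells. Id3 differed by -2.18 over all cells (-1.50 and -2.79) and by 0.13 within CM-like cells. Bmp5 had a difference of 0.79 over all cells and -0.69 within CM-like cells, so its sign turned. Tgfb2 differed by 2.38 (2.21 and 2.52), less than the 2.90 within CM-like cells.

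**Figure D5:**
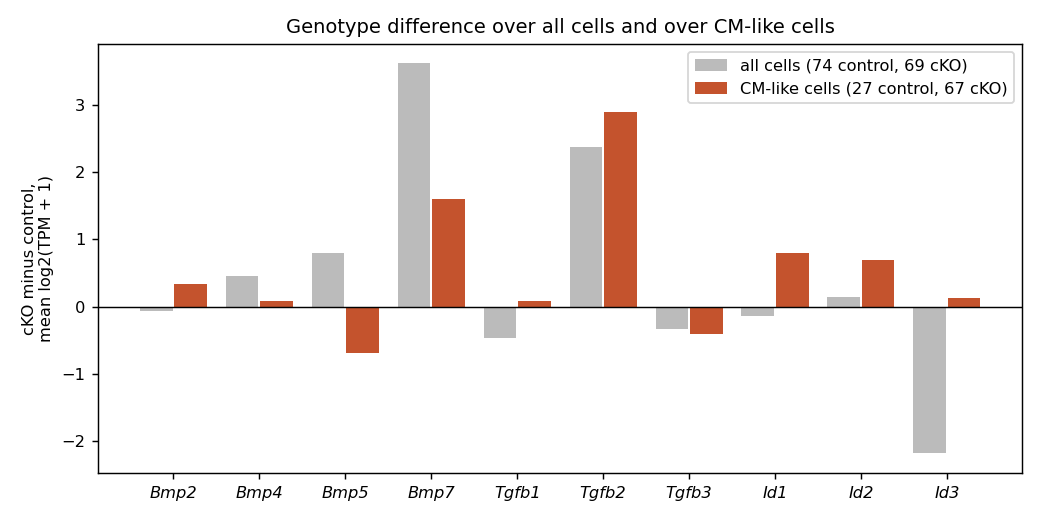
Difference in mean log2(TPM + 1), cKO minus control, for each member over all 74 control and 69 cKO cells (grey) and over the 27 control and 67 cKO CM-like cells (orange). Bmp7 shrinks from 3.62 to 1.60, Id3 from -2.18 to 0.13, Bmp5 changes sign and Tgfb2 stays high.

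The genes whose levels were most like those of each member across the 74 control cells were taken from 12680 genes with a TPM of at least 1 in at least 10 of these cells, by Pearson's r. For Bmp7 they were Prkaa2 (0.86), Trim55 (0.84) and Mybpc3 (0.83), and for Bmp5 Prkaa2 (0.74), Slc8a1 (0.73) and Klhl30 (0.70). For Tgfb2 they were Stk26 (0.60), Map1b (0.60) and Upk1b (0.59), and for Bmp2 Daam2 (0.68), Ildr2 (0.66) and Tnfaip6 (0.65). For Id3 they were Fn1 (0.72), Nfib (0.72) and Litaf (0.72), for Id2 Gabarap (0.72), Tuba1a (0.69) and Nfib (0.68), and for Id1 Id3 (0.64), Gnpnat1 (0.57) and Tubgcp2 (0.56). Trim55 and Mybpc3 are sarcomere genes and stand among the top 10 genes of the CM-like cluster, and Stk26 and Upk1b among those of the epicardial-like cluster, for which Upk1b is also a marker used in clustering. For the sparse Bmp4, Tgfb1 and Tgfb3, detected in 16, 11 and 11 of these cells, the highest r was 0.53 (Slc6a20b), 0.63 (Armcx6) and 0.60 (Rpp25). The points share classes and batches, so these values describe the order of cells only.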

How the data were processed

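Each sample was a single hand-picked cell, made into a Smart-seq2 library. The deposited table gives TPM per gene, which the authors computed with Salmon against mm10. The Salmon version and the annotation release are not given in the sources used here. Before deposit, the authors filtered cells on mapping rate and on reporter transcripts that matched the genotype. Columns were matched to samples by title, 27 of the 170 samples were not analysed here, and no doublet caller was run on hand-picked cells. Column sums were 996133 to 999999, so TPM scales each cell to the same total and an abundant transcript lowers all others. Amplified reads without molecular identifiers keep duplicates.

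Levels are log2(TPM + 1), which understates changes at low levels. Cells were clustered by Ward linkage on z-scored levels of 55 markers into 5 clusters. Names came from the markers: a class had to have at least 3 markers 1 log2 unit or more over the remaining cells, more of its list than any other class, and no rival ahead among the 10 leading genes. Shares have exact Clopper-Pearson 95% intervals, and a share of 0 has a limit of 3 cells. The labels name no embryo, so no test was run. The calls were run on resampled CM-like cells with known changes put into well-expressed genes, so sparse members were not covered. The clustering was rerun on markers shuffled within the assigned clusters, which cannot show whether those clusters are right. Named genes are all 10 members, pathway genes past the threshold in CM-like cells, 6 further receptors and Smads, and for each member the 3 genes with the highest r. The members and lists were chosen with earlier results of these data known. Windows and motifs came from RefSeq (GRCm38.p6) and positions from GENCODE. Python 3.11.15, numpy 2.4.6, pandas 2.3.3 and scipy 1.17.1 were used.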

Additional observations from a re-analysis of the deposited data

How the results depend on the processing

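All alternatives were planned, and of 103 recomputed counts and medians 80 stayed within 1.5 times the reported count or within the spread. Tgfb2 stayed higher in cKO CM-like cells under all 13 alternatives (1.91 to 3.52) and Bmp7 kept its direction (0.97 to 2.31), below 1 log2 unit only where clusters came from the 1000 most variable genes. Bmp4 kept its sign under 9 of 12 (-0.72 to 0.78) and Id3 under 9 of 13 (-1.20 to 0.34). Not every alternative could alter these differences. A changed filter leaves the difference of a gene as it was, and 6 clusters kept the same 27 control and 67 cKO CM-like cells. The sign in each batch was already part of the rule for a call. Of the 40 detection shares at other thresholds, 27 lay within the reported interval.

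With a pseudocount of 0.1, 1 member and 5 pathway genes were lower and the median of the members was 0.52. With a pseudocount of 10 the median was 0.19 and no pathway gene was past the threshold in either direction (0 and 0). The log2 ratio of mean TPM gave 3 higher members (Tgfb2, Bmp7 and Bmp2), 1 lower member (Tgfb3) and 10 higher pathway genes. Over all cells it gave 2 lower members. A filter of TPM of at least 1 in most cells gave a median of 0.75. With 4 clusters, 34 control and 69 cKO cells were CM-like. In them 4 members (Tgfb2, Bmp7, Id1 and Id2) and 8 pathway genes were higher, 0 pathway genes were lower and the median was 0.48. With clusters from variable genes, 22 control and 61 cKO cells were CM-like, 1 member was higher, 1 lower, and the median was 0.16. Batch 1 alone gave a median of 0.54, 9 higher pathway genes and 1 lower. Batch 2 alone gave 4 higher members, a median of 0.79 and 9 lower pathway genes. The cause of these changes was not tested.

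Genes past the threshold in CM-like cells over all genes numbered 955 higher and 931 lower. They numbered 1608 and 1806 with a pseudocount of 0.1, 285 and 214 with 10, 3054 and 988 by the ratio of mean TPM, 1814 and 347 with 4 clusters and 642 and 1920 with variable genes. They were 1910 and 554 in batch 1 alone and 772 and 2949 in batch 2 alone, so calls in 1 batch lean in opposite directions. Centring each cell on broadly expressed genes left 48.3% of the CM-like calls higher, against 50.6%. It left 30.3% over all cells, against 50.9%, with a median over all genes of -0.26 in place of -0.03, and 58.4% between endothelial-like and CM-like control cells, against 71.7%, with 0.04 in place of 0.29. No paired analysis was possible because a replicate number stands for 1 cell and nothing pairs cells of the genotypes, and because no test was run.

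Depth per cell is unknown. The number of cells limits the shares, since for 27 cells a share of 0 allows up to 11.1%.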

Other observations

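In the cluster of 9 unnamed cells, the mitochondrial share of TPM was 18.6% to 61.4% in 8 cells and 4.32% in 1 control cell, which had 10851 genes above 0. None of the 7 unnamed control cells had Bmp2, Bmp4, Bmp5 or Bmp7 at a TPM of 1, and 1 had Tgfb2 (TPM 23.6). Id2 was detected in all 7, with a median TPM of 3.71 and a maximum of 500.5. One of the 2 unnamed cKO cells held Tgfb2 at a TPM of 2223.2, above every other cell of either genotype, whose highest value was 401.3, with Bmp4 at 7.24, 18.6% of its TPM mitochondrial and 4462 genes above 0. The other had Tgfb2 at 3.76.

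Of the 5 erythroid-like control cells, 2 had Bmp7 and 2 had Bmp5 at a TPM of 1 or more, with maxima of 65.4 and 55.6, and 4 had Id1 (maximum 242.6).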
